A study of Homo sapiens with 6 samples.

Results

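ATF2 is a single gene on the minus strand of chromosome 2, described here through its splice junctions in K562, an established human line from a chronic myeloid leukaemia. Its members are the junctions with strand code 2 whose intron lies inside 175936900 to 176033200 (hg19). There were 99 such junctions among the 780566 listed over 6 libraries, 32 of them annotated in the files and 67 unannotated. The gene was chosen by its junction shares in these same libraries, among them the inclusion of a 74 nt exon at 175957271 to 175957344. Every value of ATF2 in that comparison is therefore a description, and no p-value is given for it.

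Poly(A)+ RNA was sequenced in 3 libraries whose genotype is a knock-in of wild-type U2AF1 and in 3 with U2AF1 S34F. U2AF1 is the subunit of the U2 auxiliary factor that contacts the AG at the end of an intron, and S34F is a recurrent substitution of it in myeloid neoplasms. The labels give no treatment or time, and do not say whether replicates were separate cultures or clones, so the spread between them may be technical. The title of the series concerns missplicing in cancers with splicing factor mutations.

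ATF2 encodes a transcription factor of the ATF/CREB family. Its leucine zipper lets it pair with itself or with JUN proteins, and the basic region beside the zipper then binds cyclic AMP response elements in DNA. Stress-activated MAP kinases phosphorylate its N-terminal activation domain, which is otherwise held back by contact with the zipper region. Many ATF2 transcripts that differ in their exons are known. An exon whose length is not a multiple of 3 shifts the reading frame when it is left out of a coding region. Sequence and coding status of the exons below were not analysed here, and lengths and positions come from the junctions themselves.

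The libraries held from 18074706 to 39279169 uniquely mapped spliced reads, the fewest in S34F replicate 2 and the most in S34F replicate 3. ATF2 junctions took 1381, 1524 and 1434 of these reads in wild-type replicates 1 to 3 and 973, 740 and 1514 in S34F replicates 1 to 3. Wild-type replicate 1 stood apart from the other two of its group at 3 of the 4 ATF2 exons described below, on the side of the S34F libraries. Over all junctions with at least 40 reads in a pair of libraries, chi-square per degree of freedom was 10.01 and 7.04 between wild-type replicate 1 and replicates 2 and 3, and 5.19 between the latter, where sampling noise alone gives 1. The S34F pairs gave 10.07 to 17.1, but the measure also grows with depth, so it does not show whether wild-type replicate 1 was unusual over the genome. With wild-type replicate 1 left out, genome-wide calls, defined below, rose from 1092, 451 and 528 to 1932, 1208 and 1063 (acceptor, donor and cassette). They fell with any other library left out. Defining transcripts of K562 cells were not analysed here, since no gene but ATF2 was placed on the coordinates.

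The 5 constitutive and 16 alternative annotated junctions outlined 15 internal exons over 93.2 kb between the first 5′ splice site and the last 3′ splice site. Exons bounded by a rarer annotated junction are not counted among them, such as the exon between the junctions 175991960 to 175994865 (22 reads in all) and 175991787 to 175991883 (26 reads). Of these exons, 4 were cassette exons, that is exons both included and skipped with enough reads to measure: 35 nt at 176012674 to 176012708, 97 nt at 175986172 to 175986268, the 74 nt exon, and 88 nt at 175939728 to 175939815. In the order of transcription they lay 20.1, 46.5, 75.4 and 92.96 kb from the first 5′ splice site. None of these 4 lengths is a multiple of 3. The exons next to the 74 nt exon are 207 nt upstream and 106 nt downstream.

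**Figure D1:**
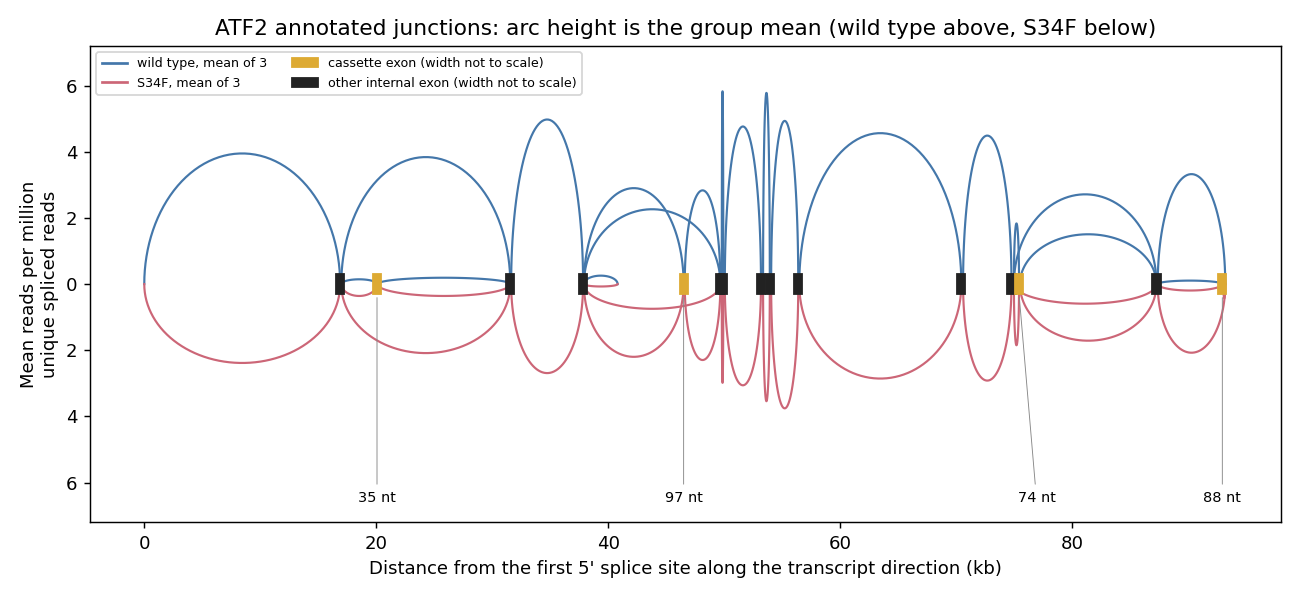
The 5 constitutive and 16 alternative annotated ATF2 junctions drawn as arcs against distance in kb from the first 5′ splice site, with arc height giving the mean reads per 1000000 unique spliced reads (RPM) of 3 wild-type libraries (above) and 3 S34F libraries (below). The arcs that skip the 97 nt and 74 nt exons are lower in S34F, at 0.747 and 0.593 RPM, than in wild type, at 2.26 and 2.71.

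Mean inclusion was higher in S34F than in wild type at all 4 cassette exons, most at the 74 nt exon, where it went from 38.1% ± 16.6 to 75.0% ± 6.2 (mean ± SD, n = 3 each). The 97 nt exon went from 57.0% ± 9.99 to 75.2% ± 5.8, the 35 nt exon from 4.38% ± 0.29 to 14.7% ± 5.3, and the 88 nt exon from 4.95% ± 5.5 to 12.8% ± 5.3. Inclusion is the mean of both inclusion junctions, rounded to a whole read, divided by that mean plus the skipping reads. At 3 of the 4 exons every S34F library lay above every wild-type library, as did 12.7% of the 19272 exon and junction combinations tested over the whole genome. Over all of those, 47.0% were higher in S34F by their means and the median change was -0.08 in log2 odds, beside 1.68 for the 4 ATF2 exons. The exons belong to 1 gene and share their libraries, so they are not replicates of each other, and the gene was chosen for 1 of them.

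At the 74 nt exon the libraries with wild-type U2AF1 included it in 57.1%, 27.3% and 29.8% of cases in replicates 1, 2 and 3. The S34F libraries included it in 81.5%, 69.2% and 74.3%. The groups did not overlap: the lowest S34F library was 12.1 percentage points above wild-type replicate 1, which itself was far above both other wild-type libraries. The 95% Clopper-Pearson interval of wild-type replicate 1, 47.4% to 66.5%, reached past the lower bounds of S34F replicates 2 and 3. Their intervals were 52.4% to 83.0% and 64.8% to 82.3%. It did not reach that of S34F replicate 1, 68.6% to 90.7%. These intervals cover counting error only, and the shares rest on 39 to 112 reads per library.

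Inclusion of this exon can be read on either of its sides. In wild-type replicates 1 to 3, the upstream inclusion junction had 72, 28 and 30 reads, the downstream one 56, 32 and 20, and the skipping junction 48, 80 and 59. In S34F replicates 1 to 3, the upstream junction had 48, 27 and 79 reads, the downstream one 40, 27 and 76, and the skipping junction 10, 12 and 27. Skipping thus outnumbered inclusion in wild-type replicates 2 and 3 and was the minor form in the other 4 libraries. The change was 2.30 in log2 odds (SE 0.49) with both junctions, 2.24 (SE 0.53) with the upstream junction alone and 2.38 (SE 0.51) with the downstream one alone.

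A combination was called when its edgeR quasi-likelihood test, adjusted by Benjamini-Hochberg over all combinations, was under 0.05 and the group means differed by at least 10 percentage points. Of the 4 ATF2 exons, 1 was called, the 74 nt exon, and over the genome 2.74% were called, 1.03% higher and 1.71% lower in S34F. Since this contrast chose the gene, nothing is read from that count. The calls changed with single libraries and with the test: limma on the log2 odds called none of the 4 and none over the genome. Without wild-type replicate 1 all 4 exons were called, beside 5.5% over the genome, and the 74 nt exon's change was 2.93 (SE 0.40). Without wild-type replicate 2, or without any 1 of the S34F libraries, none was called, beside 0.698%, 0.727%, 0.469% and 0.0415% over the genome. The 74 nt exon's change was then 1.94, 2.09, 2.47 and 2.36 in turn.

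**Figure D2:**
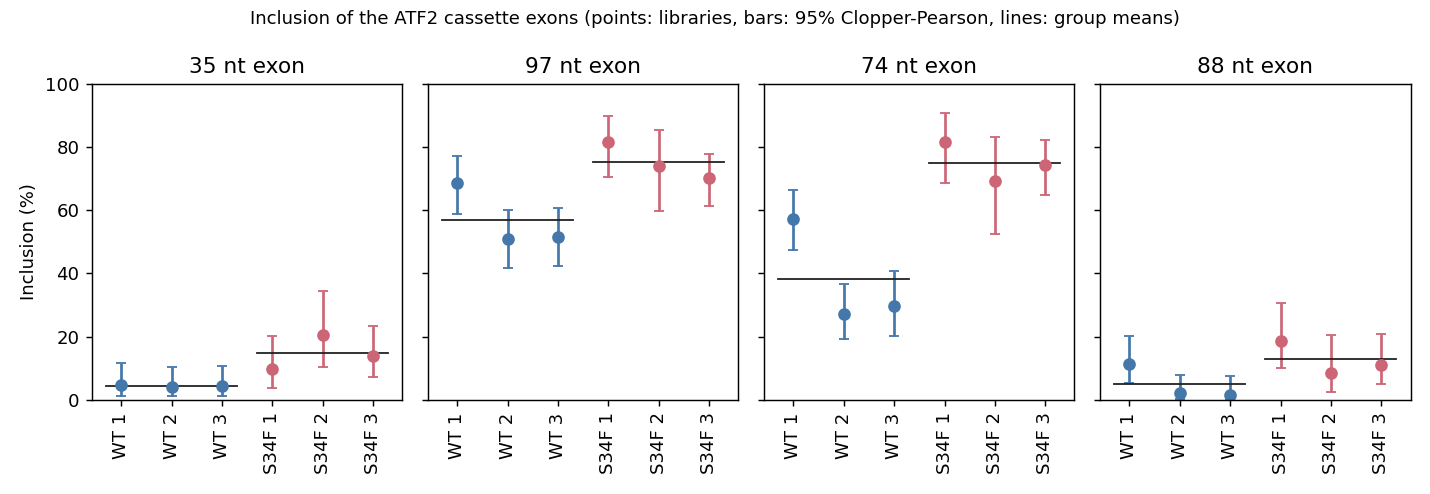
Inclusion in percent of the 4 ATF2 cassette exons in each library, with 95% Clopper-Pearson intervals and lines at the group means (n = 3 each). At the 74 nt exon wild-type replicate 1, at 57.1%, sits between wild-type replicates 2 and 3 (27.3% and 29.8%) and the S34F libraries (69.2% to 81.5%).

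Inclusion of the 97 nt exon was 68.5%, 50.8% and 51.6% in wild-type replicates 1 to 3 and 81.4%, 74% and 70.1% in S34F replicates 1 to 3. The groups did not overlap, but the gap between S34F replicate 3 and wild-type replicate 1 was only 1.56 percentage points, within the counting interval of each (61.3% to 77.9% and 58.9% to 77.1%). Its upstream and downstream junctions had 70 and 77 reads in wild-type replicate 1, 57 each in S34F replicate 1, and 33 and 41 in S34F replicate 2. From the downstream junction alone the groups overlapped, with 69.37% in wild-type replicate 1 and 69.35% in S34F replicate 3. From the upstream junction alone these were 67.3% and 70.8%. The exon's change was 1.16 in log2 odds (SE 0.41), and it was not called with all 6 libraries.

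The 35 nt exon, which lies nearest the start of the gene, was rare throughout. It was included in 4.71%, 4.17% and 4.26% of cases in wild-type replicates 1 to 3, and in 9.84%, 20.4% and 13.8% in S34F replicates 1 to 3. All S34F libraries were above all wild-type ones, and here wild-type replicate 1 was close to the rest of its group. The inclusion side rested on 4 reads in each wild-type library and on 6, 10 and 11 in the S34F libraries. The change was 1.85 in log2 odds (SE 0.54), and the exon was not called.

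The 88 nt exon precedes the last 3′ splice site. It was included in 11.2%, 2.20% and 1.41% of cases in wild-type replicates 1 to 3, against 18.8%, 8.51% and 11.1% in S34F replicates 1 to 3. Wild-type replicate 1 lay above S34F replicates 2 and 3, so the groups overlapped. The change was 1.52 in log2 odds (SE 0.67), which became 2.91 (SE 0.76) without wild-type replicate 1. The junction leaving the exon had more reads than the one entering it in all 6 libraries, for example 13 against 3 in S34F replicate 3. Inclusion taken from the entering junction alone was 4.48% in that library, against 16.9% from the leaving one.

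Wild-type replicate 1 was the highest of its group at all 4 exons. Without it, the wild-type mean of replicates 2 and 3 was 28.5% at the 74 nt exon, 51.2% at the 97 nt exon, 4.21% at the 35 nt exon and 1.80% at the 88 nt exon. What set this library apart was not tested.

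The same choices were seen at single splice sites. Acceptor usage is the share of a 5′ splice site's reads that go to a given 3′ splice site, and donor usage is the share of a 3′ splice site's reads that come from a given 5′ splice site. Of the 11 ATF2 junctions with enough reads for acceptor usage, 2 were called, 1 in each direction (2.12% over the genome, 1.03% higher and 1.09% lower), and 7 did not overlap between the groups (25.2% over the genome). Of the 13 in donor usage, 2 were called, again 1 in each direction (0.934%, with 0.458% higher and 0.476% lower) and 6 did not overlap (22.4%). The same contrast chose the gene, so nothing is read from these counts. Junctions of 1 site mirror each other, so these counts hold each choice more than once. All the called junctions touch the 74 nt exon or skip it.

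From the 5′ splice site at 175957788, the end of the 207 nt exon, the path to the 74 nt exon took 39.9% ± 17.9 (n = 3) of its reads with wild-type U2AF1 and 75.5% ± 6.8 (n = 3) with S34F. At the 3′ splice site at 175945494, where the 106 nt exon starts, the reads coming from the 74 nt exon made up 35.7% ± 15.4 in wild type and 73.3% ± 4.7 in S34F. The log2 odds changed by 2.23 (SE 0.50) and 2.31 (SE 0.48). Without wild-type replicate 1 the called junctions numbered 5 in acceptor usage and 6 in donor usage, adding junctions of the 97 nt, 35 nt and 88 nt exons. Over the genome 4.15% and 2.76% were called in that setting, so calls rose there too. Without wild-type replicate 2, or without any 1 of the S34F libraries, there were 0 in both. The genome-wide shares then were 0.185% to 1.03% in acceptor usage and 0.0102% to 0.206% in donor usage. Without wild-type replicate 3 there were 2 and 1, beside 1.3% and 0.412% over the genome. DESeq2 called 0 in acceptor usage and 2 in donor usage, and limma on the log2 odds called 0 in both.

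From the 5′ splice site at 175994865, the end of the 70 nt exon, reads went mostly to the 97 nt exon, past it, or through an annotated junction to the 3′ splice site at 175991960. The share that went to the 97 nt exon was 53.6% ± 9.7 in wild type and 71.3% ± 5.3 in S34F. The share that passed it was 39.9% ± 8.0 and 24.3% ± 5.8. That annotated junction took 3.67%, 0.781% and 7.75% of the reads in wild-type replicates 1 to 3 and 2.70%, 2.13% and 2.17% in the S34F libraries. Its groups overlapped, and the spread among the wild-type libraries was larger than the difference of their means.

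At both ends of the gene the choices were lopsided. The junction from the first 5′ splice site at 176032777 to the 3′ splice site at 176015887 took 95.7% ± 1.5 of the reads of that 5′ splice site in wild type and 93.3% ± 3.9 in S34F, with overlap. At the last 3′ splice site, 175939564, the direct junction from the 106 nt exon took 93.4% ± 5.0 in wild type and 80.9% ± 4.0 in S34F. There the groups did not overlap, with wild-type libraries from 87.7% to 96.7% and S34F libraries from 76.5% to 84.3%, and the junction was not called.

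The amount of ATF2 transcript was described from 5 constitutive junctions, those with at least 95% of the reads at both of their sites in every library. Summed, they had 21.8, 25.4 and 30.2 reads per 1000000 unique spliced reads (RPM) in wild-type replicates 1 to 3 and 16.6, 16.7 and 15.6 in S34F replicates 1 to 3. Every S34F library was below every wild-type library, and wild-type replicate 1 was again the nearest. The log2 fold change was -0.68 (SE 0.18), a level of 0.624 times wild type, while the median over 116337 junctions was 0.01. A fold as low or lower was seen at 5.69% of those junctions. They are single junctions, while the ATF2 value is a sum over 5, so the counting noise of the values compared differs. The sum was not called by edgeR with any of the alternatives run and was called by DESeq2. In bulk RNA, fewer cells with the transcript and less of it per cell cannot be told apart.

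All 5 constitutive junctions were lower in S34F without overlap, with log2 fold changes from -0.98 to -0.41. Of the 16 ATF2 junctions with enough reads to be tested for level, 15 had a fold below 1, with a median of -0.70. Below wild type without overlap were 12 (8.74% of junctions over the genome). These junctions belong to 1 gene and share their libraries, so they repeat 1 level difference and are not replicates of each other. The inclusion junctions of the 35 nt and 88 nt exons had too few reads and are not among the 16. Mean reads with those exons were higher in S34F, as given below. Of the 16, 1 was called at an adjusted p under 0.05, the junction that skips the 74 nt exon. Over the genome 0.148% were called lower and 0.275% in either direction. The reads of that skipping junction are among the values that chose the gene, so nothing is read from this call.

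The forms with and without the 74 nt exon had different level changes. The skipping junction had 1.89, 3.21 and 3.04 RPM in wild-type replicates 1 to 3 and 0.426, 0.664 and 0.687 in S34F replicates 1 to 3, a log2 fold change of -2.20 (SE 0.32). The junctions into and out of the exon had log2 fold changes of -0.02 (SE 0.33) and 0.15 (SE 0.31), and their groups overlapped. Reads with the exon were thus at 1.67 ± 0.73 RPM in wild type and 1.78 ± 0.26 in S34F, while reads without it went from 2.71 ± 0.72 to 0.593 ± 0.14.

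At the 97 nt exon both forms had lower means in S34F, the skipping form by more. Its skipping junction went from 2.26 ± 0.86 to 0.747 ± 0.21 RPM, with a log2 fold change of -1.58 (SE 0.35). Its 2 inclusion junctions changed by -0.42 (SE 0.22) and -0.33 (SE 0.23), and the groups did not overlap at the first of these and overlapped at the other. Reads with the exon went from 2.88 ± 0.38 to 2.25 ± 0.19 RPM. At the rare 35 nt exon, reads with the exon went from 0.175 ± 0.027 to 0.363 ± 0.17 RPM and reads that skip it from 3.84 ± 0.74 to 2.09 ± 0.30. Reads with the 88 nt exon went from 0.162 ± 0.17 to 0.312 ± 0.17 RPM, within the spread, and reads without it from 3.32 ± 0.46 to 2.07 ± 0.39. Reads that join 1 exon boundary do not show which of these exons occur in the same transcript.

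**Figure D3:**
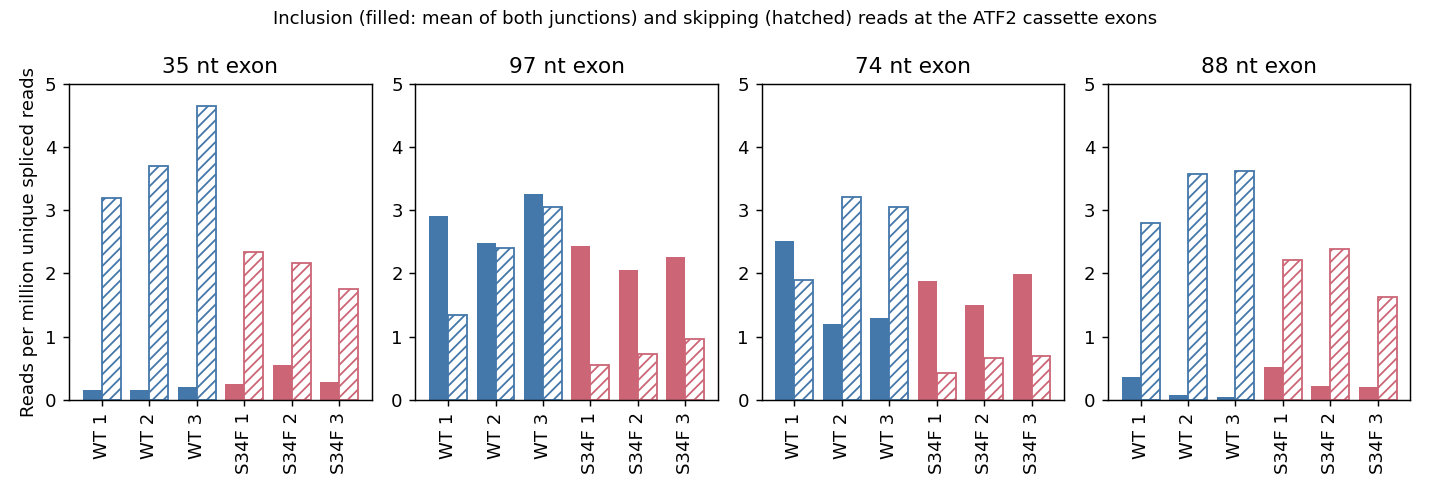
RPM of reads that include (filled) or skip (hatched) each ATF2 cassette exon, by library. Skipping of the 74 nt exon is at 0.426 to 0.687 in S34F and 1.89 to 3.21 in wild type, while the inclusion bars of the groups overlap.

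**Figure D4:**
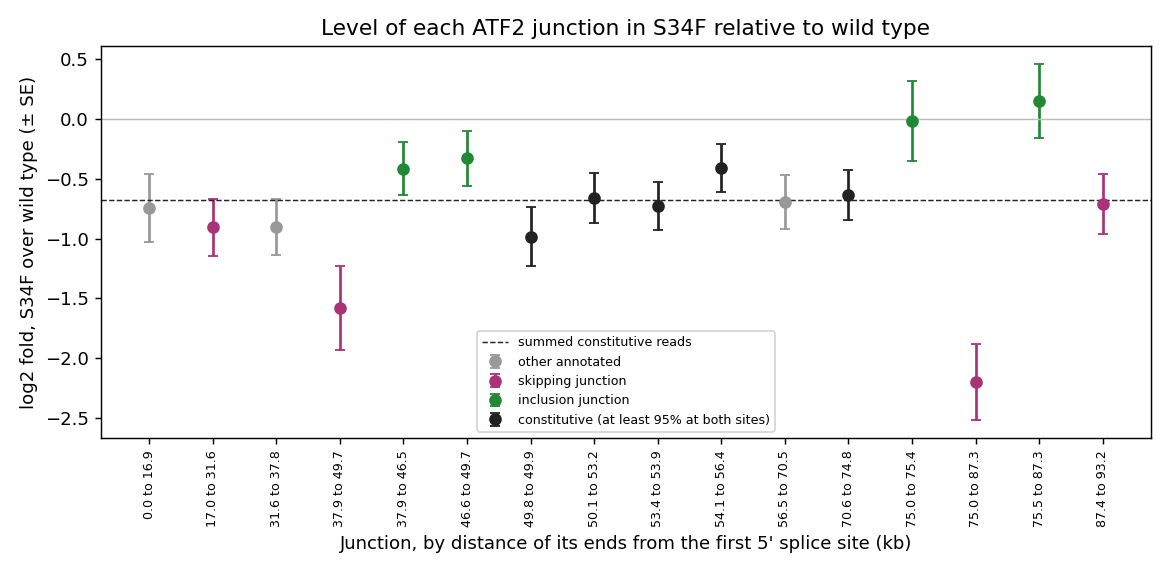
Log2 fold change of each of 16 ATF2 junctions, S34F over wild type, with bars of 1 SE, in the order of transcription along the gene. Among the 16 drawn, the junctions that skip the 97 nt and 74 nt exons lie lowest, at -1.58 and -2.20. The junctions into and out of the 74 nt exon lie highest of the 16, near 0. The dashed line for the constitutive sum is at -0.68. The inclusion junctions of cassette exons other than the 97 nt and 74 nt ones had too few reads and are not drawn. Mean reads with those other exons were higher in S34F.

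Unannotated junctions held few of the gene's reads. They took 1.88%, 1.57% and 2.86% in wild-type replicates 1 to 3 and 2.77%, 2.03% and 1.92% in the S34F libraries, and the groups overlapped. Of the 67, 46 had 1 or 2 unique reads over all libraries and 65 had fewer than 10. Of the 32 annotated junctions, 4 had no unique read. Some 26 of the unannotated junctions, with 80 of 162 reads, lay inside the first intron.

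Both unannotated junctions with at least 10 reads that reached 1% of a site in every library of a group lay there. The junction from the first 5′ splice site to 176029255 had 1 read in each wild-type library and 1, 5 and 3 in the S34F libraries, which was 1.10% ± 0.24 and 4.48% ± 3.0 of that site. The junction from 176019028 to 176015887 had 5, 0 and 2 reads in wild-type replicates 1 to 3 and 3, 1 and 4 in the S34F libraries, and its shares overlapped. Unannotated pairings of annotated sites had 22 reads in wild-type replicate 3 and from 2 to 5 in each other library.

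Cassette exons elsewhere were ranked by how near their inclusion came to that of the 74 nt exon over the 6 libraries, among 9930 combinations with annotated inclusion junctions and at least 50 reads per library. The nearest was one of 142 nt on chromosome 12 (minus strand, 31457916 to 31458057), with a root-mean-square difference of 8.03 percentage points. Its inclusion was 65.9%, 36.8% and 40.8% in wild-type replicates 1 to 3 and 75.5%, 76.7% and 71.7% in the S34F libraries. Nearness was measured over these same libraries, so a high wild-type replicate 1 is part of the choice. The fifth nearest, on chromosome 15, did not have it, with 47.5%, 49.2% and 33.3% in wild-type replicates 1 to 3. After the chromosome 12 exon came 81 nt on chromosome 4 (plus strand, 20726431 to 20726511, difference 8.67) and 87 nt on chromosome 9 (minus strand, 135144790 to 135144876, 9.95). Then followed 165 nt on chromosome 8 (plus strand, 17838100 to 17838264, 10.3) and 87 nt on chromosome 15 (plus strand, 50776472 to 50776558, 10.4).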

How the data were processed

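Each library came with 1 deposited table of raw counts of uniquely mapped and of multi-mapped reads per splice junction, beside the largest overhang in nt. Reads were aligned with STAR to hg19, per the submitters' processing notes; versions, annotation and junction filters are not given in the sources used here. Libraries were TruSeq poly(A)+ preparations, per the labels' protocols. Tables were joined by position, a missing junction counting as 0, and junctions with a motif code from 1 to 6 were used.

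Shares were fitted over the whole genome with edgeR 4.0.16 (R 4.3.3; quasi-likelihood, robust, legacy dispersion) on 2 counts per library, with 1 term per library, a term for which of the counts it is, and that term crossed with genotype. Events needed 20 reads in every library and 10 on each side over the libraries (on each of the 3 junctions for cassette exons of at most 500 nt). Levels were fitted on all junctions with TMM factors and edgeR's expression filter. SE is the absolute coefficient over the square root of F. DESeq2 1.42.0 and limma 3.58.1 were alternatives. The fits were also run on simulated data with 1 fixed noise level, which need not match these libraries, so nothing is read from them. RPM is relative to unique spliced reads.

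ATF2, its junctions and the lists were chosen with earlier results of these data known. Junctions were described singly if annotated with 2% to 98% of a site with 20 reads, or unannotated with 1% of a site in all libraries of a group and 10 reads; the nearest 5 exons elsewhere were named by root-mean-square difference.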

Additional observations from a re-analysis of the deposited data

Results flagged for a closer look

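The junction from 176043784, upstream of the gene's bounds, to the ATF2 3′ splice site at 176015887 drew attention because it lies outside the junctions compared and was seen in all S34F libraries and in no wild-type library. It had 4 unique reads in all, 2, 1 and 1 in S34F replicates 1 to 3 and 0 in each wild-type library. At 3 counts, the limit that a count of 0 allows, the groups are not told apart.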

How the results depend on the processing

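The change at the 74 nt exon was 2.30 in log2 odds and stayed within 1 SD between libraries (0.78) under all 14 alternatives run, from 2.10 to 2.38 with all libraries and from 1.94 to 2.93 with 1 library left out. It was not given a value with at least 50 reads in every library, since 1 library had fewer. The level change of -0.68 ranged from -0.68 to -0.66 under 6 alternatives and from -0.79 to -0.56 with 1 library left out.

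The counts of ATF2 calls were less stable. In acceptor usage 2 became 0 with DESeq2 and with limma on log2 odds, and leaving out a library gave 0 to 5. With at least 50 reads per library 1 of the 2 junctions tested was called. That junction was not among the 2 of the main fit, which were not tested, since 1 library had fewer reads at their site. In donor usage 2 became 0 with limma, and leaving out a library gave 0 to 6. With at least 50 reads 0 were called, but the 2 of the main fit were not tested, for the same reason. In cassette exons 1 became 0 with limma, and leaving out a library gave 0 to 4. With at least 50 reads 0 were called, but the 1 of the main fit was not tested. Over the genome limma called 0 in each class, where edgeR called 1092, 451 and 528. At an unadjusted p under 0.05, with no minimum difference, limma had 9348, 7559 and 4218 and edgeR had 10269, 8331 and 4607. Where no cause is named, it was not tested.

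The replicate numbers did not pair the libraries: deviations of same-numbered libraries from their group means correlated at -0.19, -0.15 and -0.01 over junction levels. With the replicate block the exon's change was 2.38 (SE 0.47), the level change was -0.67, and the ATF2 calls were 2, 2 and 1; over the genome cassette calls were 185. Other genome-wide counts also moved: DESeq2 called 150, 185 and 271; no low-count filter (at least 1 read in every library and on each side) gave 522 acceptor, 222 donor and 740 cassette calls; at least 50 reads gave 681 acceptor and 311 cassette calls. Leaving out a library gave 77 to 1932, 4 to 1208 and 8 to 1063, the highest of each without wild-type replicate 1. Junctions called lower in level were 172, and 726 with DESeq2, 1089 without the filter, 20 with the block and 0 to 305 with a library left out. Depth limits the 35 nt and 88 nt exons most, with 1 to 12 inclusion reads per library.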
